A study of Homo sapiens with 62 samples.

Results

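The measurements described here came from T3M-4 cells, a human pancreatic ductal adenocarcinoma line used as a basal-like model, treated for 4 h with CB-6644 or with the solvent DMSO. They were chosen by their labels as the 4 CB-6644 and 4 DMSO libraries of this line, which are 8 of the 62 samples of the series and 8 of its 20 T3M-4 samples. CB-6644 is an allosteric inhibitor of the ATPase activity of RUVBL1 and RUVBL2. All cells of the series, controls included, carried KLF5 fused to FKBP12-F36V and FLAG in place of endogenous KLF5, which had been knocked out by an sgRNA with Cas9. No degrader was given to the CB-6644 or DMSO cells. They were stable Cas9 lines, and the sources used here do not say whether they were clonal. The first number of a replicate gave the experiment (1 or 2), each experiment was also its own labelled batch, and each held 2 CB-6644 and 2 DMSO libraries. The labels name replicates as separate samples, and the study describes those within an experiment as biological replicates.

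RUVBL1 and RUVBL2 are AAA+ ATPases that form a ring. They are subunits of the INO80, SRCAP and TIP60 chromatin complexes, and as part of the R2TP chaperone they help to assemble other complexes, among them box C/D small nucleolar ribonucleoproteins, kinases of the mTOR and ATM family, and RNA polymerase II. Box C/D small nucleolar RNAs (snoRNAs) guide the methylation of ribosomal RNA, and most human ones are cut out of introns of host genes, many of which encode ribosomal proteins. In SLAM-seq, cells take up 4-thiouridine (here for 2 h), and reads from RNA made in that time carry T>C conversions. The reads with conversions (T>C reads) therefore sample newly made RNA, while all reads sample the whole pool.

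In units of 1000000 reads, 14.8 to 24.01 T>C reads and 127 to 204 reads in all were counted per library. The line matched its label: the 7 basal-like markers examined were all at 1 count per 1000000 (CPM) or more and summed to 2389 to 5284 CPM of all reads after CB-6644 and 2884 to 4769 after DMSO. The 9 classical markers summed to 6.92 to 21.3 CPM after CB-6644 and 9.24 to 20.6 after DMSO. The 6 fibroblast markers summed to at most 10.1 CPM in any library, with COL3A1 at 0, and the 4 leukocyte markers to at most 3.6.

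The sequences of 5 of the 6 box C/D snoRNAs with the smallest p-values in all reads are given first, because these RNAs made up the clearest difference between CB-6644 and DMSO. They are the GENCODE v44 transcripts on GRCh38, 5′ to 3′, all on the plus strand. Capitals mark TGATG, the core of box C, where it begins the first match within 25 bases of the 5′ end, and CTGA, box D, at its last match within 20 bases of the 3′ end. Both were searched on the transcript strand only, and the 2 windows do not overlap.
SNORD68: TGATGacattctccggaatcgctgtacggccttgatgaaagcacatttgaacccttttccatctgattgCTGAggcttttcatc
SNORD45C: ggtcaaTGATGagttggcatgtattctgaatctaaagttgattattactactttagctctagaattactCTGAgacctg
SNORD35A: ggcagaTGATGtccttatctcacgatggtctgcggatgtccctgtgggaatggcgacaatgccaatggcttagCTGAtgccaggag
SNORD12C: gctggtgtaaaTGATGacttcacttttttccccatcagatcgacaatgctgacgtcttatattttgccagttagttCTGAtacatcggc
SNORD45A: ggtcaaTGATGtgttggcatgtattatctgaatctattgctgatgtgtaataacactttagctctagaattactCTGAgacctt
Both boxes were found in 183 of the 219 SNORD transcripts of the tables (83.6%) and in 0 of the 80 SNORA transcripts, which belong to the box H/ACA class.

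SNORD68 lies at chr16:89561434-89561517, within an intron of RPL13, the gene of a large-subunit ribosomal protein. It had 708, 511, 440 and 446 reads of any kind in CB-6644 libraries 1.1, 1.2, 2.1 and 2.2, and 13, 15, 10 and 18 in the DMSO libraries of the same numbers. Scaled to library size this was 4.13, 3.82, 2.68 and 2.90 CPM against 0.0742, 0.122, 0.0621 and 0.0915 CPM. Every CB-6644 library was far above every DMSO library in both experiments. The log2 fold change was 5.26 ± 0.25 (SE, n = 4 against 4; edgeR quasi-likelihood test, adjusted p = 1.66e-05). It was 5.36 in experiment 1 (adjusted p = 0.00128) and 5.16 in experiment 2 (edgeR adjusted p = 0.00169), so SNORD68 rose in each.

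SNORD46, also a box C/D snoRNA, was the other row called in all reads. Its counts were 131, 203, 195 and 155 after CB-6644 and 10, 6, 16 and 16 after DMSO. The groups did not overlap in either experiment. SNORD46 rose by 3.97 ± 0.38 on the log2 scale (SE, n = 4 against 4; edgeR adjusted p = 0.00739). The call was lost without DMSO 1.1 (adjusted p = 0.0913), without CB-6644 2.1 (0.0585) or without DMSO 2.2 (edgeR adjusted p = 0.0519), with fold changes of 3.68 to 4.11 over the 8 libraries left out in turn.

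SNORD68 and SNORD46 were the only 2 of 16185 rows called in all reads by edgeR (0.0124%), and DESeq2 called 29, these 2 included. The snoRNA rows were singled out after their values were seen. The next rows by p-value were again box C/D snoRNAs from introns, none past the threshold in edgeR. SNORD45C at chr1:75787072-75787150 and SNORD45A at chr1:75787889-75787972 both lie in RABGGTB, which encodes a subunit of the enzyme that lipidates Rab GTPases. SNORD45C had 27, 16, 165 and 111 reads after CB-6644 and 1, 0, 0 and 0 after DMSO, a pooled ratio of 347 with a 95% exact counting interval from 61.9 to 13753 (edgeR adjusted p = 0.0633). SNORD35A, at chr19:49491175-49491260 in RPL13A, had 36, 38, 172 and 270 reads against 0, 2, 0 and 0 (ratio 281, interval 77.3 to 2324; edgeR adjusted p = 0.0706). All of these counts were even, whereas its T>C counts were not, and why was not given in the sources used here. SNORD12C, at chr20:49278940-49279028 in the non-coding host ZFAS1, had 18, 7, 113 and 146 reads against 0, 1, 0 and 0 (ratio 309, interval 55.0 to 12249; edgeR adjusted p = 0.195). SNORD45A had 36, 46, 224 and 262 reads against 5, 4, 1 and 14 (edgeR log2 fold change 4.32 ± 0.68, adjusted p = 0.200). In these 4 the experiment 2 libraries after CB-6644 had more reads than those of experiment 1, whereas SNORD68 had fewer. The intervals cover counting error only. That of SNORD35A treats its counts as independent reads, which its even counts put in doubt, so it may be too narrow.

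**Figure D1:**
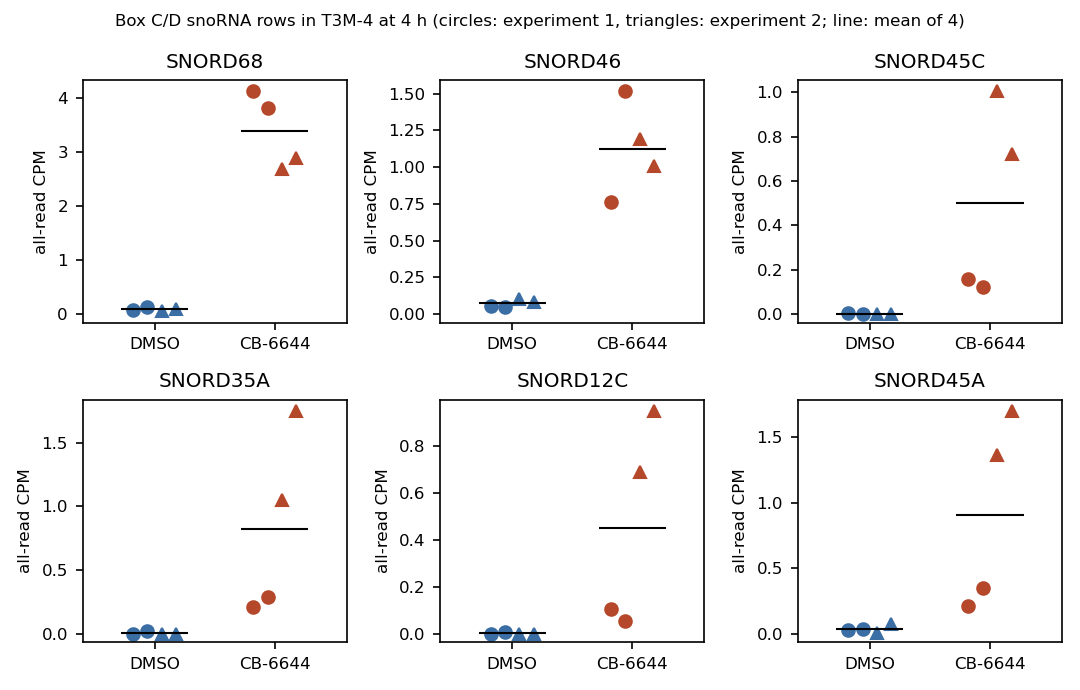
Each panel plots 1 box C/D snoRNA, with all-read CPM on the y axis and the 4 DMSO and 4 CB-6644 libraries on the x axis (circles, experiment 1; triangles, experiment 2; line, mean of 4). In all 6 panels every CB-6644 point lies above every DMSO point, with SNORD68 at 2.68 to 4.13 CPM after CB-6644.

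The difference did not extend to every snoRNA. Of the 219 SNORD rows, 115 had a read in any of the 8 libraries and 34 passed the filter on low counts. Of these 34, 25 were above 0 and 9 below. In 12 of them all CB-6644 libraries lay above all DMSO libraries, where 204 of all 16185 rows did so (1.26%). In 1, SNORD114-10, all CB-6644 libraries lay below all DMSO libraries (0.735 to 1.93 against 1.97 to 3.17 CPM). Some of the 34 passed the filter through the CB-6644 libraries alone, so these counts are a description. Over all 219 rows, the summed SNORD level was 14.2, 14.6, 24.4 and 31.1 CPM in the CB-6644 libraries and 8.23, 8.35, 15.2 and 12.9 CPM in the DMSO libraries. Within each experiment both CB-6644 sums were above both DMSO sums. These sums contain the rows singled out above, SNORD68 alone giving 4.13, 3.82, 2.68 and 2.90 CPM of the CB-6644 sums. They are therefore a description and do not show a rise of the whole class. The 80 SNORA rows summed to 2.12, 2.07, 11.2 and 17.7 CPM after CB-6644 and 4.17, 4.09, 13.3 and 13.5 CPM after DMSO. Of the 25 SNORA rows tested, 8 were above 0 and 17 below. Box C/D RNAs with promoters of their own differed among themselves. SNORD3A, the U3 snoRNA, was at 1.25, 0.494, 4.24 and 9.21 CPM after CB-6644 and 1.76, 1.24, 7.15 and 5.33 CPM after DMSO, with overlapping groups (−0.31 ± 0.35, edgeR adjusted p = 0.798). SNORD13 was at 0.928, 1.302, 2.30 and 2.51 CPM against 0.337, 0.212, 1.18 and 1.46, higher within each experiment (1.41 ± 0.30, edgeR adjusted p = 0.655).

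The host genes examined were not higher to the same extent in all reads. RPL13, host of SNORD68, was at 3515, 3406, 2539 and 1828 CPM after CB-6644 and 3337, 2729, 2089 and 2257 CPM after DMSO, a log2 fold change of 0.10 (edgeR adjusted p = 0.851). RPL13A differed by 0.31 (adjusted p = 0.662), ZFAS1 by −0.27 (0.655) and RABGGTB by −0.79 (edgeR adjusted p = 0.655). The libraries were primed at the 3′ end, whereas mature snoRNAs have no poly(A) tail. Reads of a snoRNA and of an unspliced or trimmed host intron cannot be told apart in these tables.

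Among T>C reads the same rows were sparse. SNORD68 had 42, 25, 99 and 77 T>C reads after CB-6644 and 1, 0, 0 and 8 after DMSO. SNORD46 had 4, 10, 36 and 27 against 0 in all 4 DMSO libraries. For 1 library, a count of 0 has a 95% upper limit of about 3 on the expected count. Labelled reads of SNORD68 and SNORD46 were thus present in every CB-6644 library. Neither passed the threshold in this table (edgeR adjusted p = 0.499 for each).

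The AsPC-1 line, a classical-subtype model with the same KLF5 replacement, gave independent libraries for the 2 called rows. SNORD68 was at 3.99, 0.600, 0.779, 0.230 and 0.493 CPM of all reads in the 5 CB-6644 libraries at 4 h and at 0.00725 to 0.109 CPM in the 5 DMSO libraries. At 12 h it was at 8.34, 3.76, 1.24 and 1.14 CPM against 0.0335 to 0.257 CPM. The groups did not overlap at either time. An exact two-sided permutation test gave p = 0.0167 at 4 h (120 arrangements within experiments) and p = 0.0286 at 12 h (70 arrangements), each the smallest it allows. SNORD46 was at 0.156 to 1.15 CPM against 0 to 0.109 CPM at 4 h (exact permutation p = 0.0167), and at 0.113 to 1.405 against 0.00545 to 0.123 at 12 h, where the groups overlapped (exact permutation p = 0.171). Across all AsPC-1 rows, edgeR called 0 of 14422 at 4 h (0%) and 0 of 14398 at 12 h (0%), with 356 and 325 at an unadjusted p under 0.05, so neither row passed there. The CB-6644 effect on SNORD68 in all reads was not shown to differ between lines (interaction, edgeR adjusted p = 1.00). The 1 row of 16791 called for a difference (0.00596%) was RIMS2, an active-zone protein gene, with a log2 fold change of −0.49 in T3M-4 and 6.44 in AsPC-1 (edgeR adjusted p = 0.0404 for the difference). Neither effect passed the threshold by itself (edgeR adjusted p = 0.673 in T3M-4 and 0.903 in AsPC-1).

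Other T3M-4 libraries had less SNORD68. It was at 0.0509 to 0.143 CPM in the 4 dTAG libraries, given the KLF5 degrader dTAGv1 for 4 h, and at 0.0279 to 0.170 CPM in the 4 NEG libraries, given the inactive analogue dTAG-NEG. The CB-6644 effect exceeded the dTAG effect by 5.25 (edgeR adjusted p = 4.68e-05), among 25 of 16950 rows called for this difference in all reads (0.147%). For SNORD46 the same difference was 3.04 and missed the threshold (edgeR adjusted p = 0.312). After NVP-2, a CDK9 inhibitor compared with the same DMSO libraries, SNORD68 was at 0.105 to 0.517 CPM and SNORD46 at 0.173 to 0.521 CPM. Their log2 fold changes were 2.26 (edgeR adjusted p = 0.0360) and 2.36 (edgeR adjusted p = 0.00967). That comparison called 2455 of 16109 rows (15.2%).

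The share of T>C reads in all reads was 12.6% and 11.3% in the CB-6644 libraries of experiment 1 and 14.1% and 13.4% in its DMSO libraries. In experiment 2 it was 11.8% and 11.02% against 11.06% and 11.07%. The share was thus lower after CB-6644 in experiment 1, by 1.78 percentage points, and did not separate the groups in experiment 2, where the means differed by 0.338 points in the other direction. Over both experiments the difference was −0.720 points, which did not exceed the spread (exact permutation within experiments, two-sided, p = 0.222; 36 arrangements, smallest possible p = 0.0556). With no spike-in, this share does not give the amount of new RNA per cell.

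**Figure D2:**
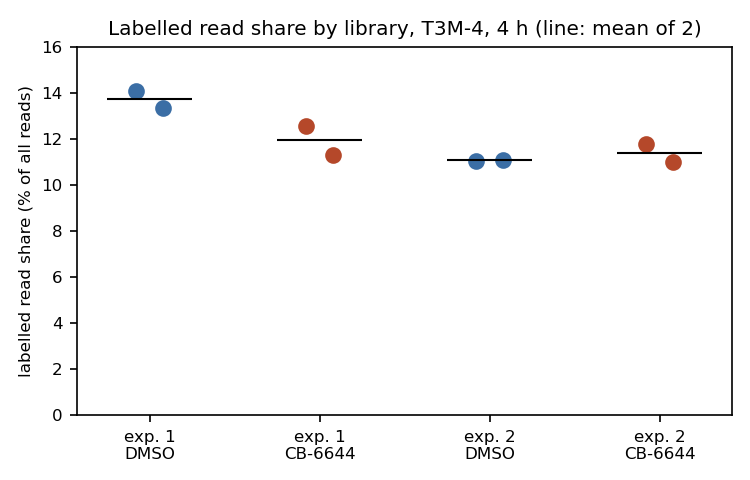
The y axis gives the share of reads that carry T>C conversions in percent, and the x axis the 4 groups by experiment, with 1 point per library and a line at the mean of 2. The 2 CB-6644 points of experiment 1 lie below its 2 DMSO points, and those of experiment 2 do not.

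Newly made RNA of single genes was compared first over both experiments, with the experiment as a block. No gene of 13894 passed an adjusted p of 0.05 in edgeR (0%), with 1270 at an unadjusted p under 0.05, and DESeq2 called 44. Of the 1270, 581 were higher after CB-6644 (4.18% of those tested) and 689 lower (4.96%). All 4 CB-6644 libraries lay above all 4 DMSO libraries for 198 genes (1.43%) and below them for 257 (1.85%).

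The gene with the smallest p was LVRN, which encodes the aminopeptidase laeverin. Its T>C level was 24.9, 16.3, 8.63 and 7.66 CPM after CB-6644 and 5.94, 4.48, 2.24 and 1.72 CPM after DMSO. Its CB-6644 libraries lay above all DMSO libraries, although both groups were lower in experiment 2. The log2 fold change was 2.01 ± 0.24 (SE), with 1.97 in experiment 1 and 2.04 in experiment 2, and missed the threshold (edgeR adjusted p = 0.0722).

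Further genes above 0 in both experiments were OSTM1, a partner of the lysosomal chloride transporter ClC-7 (0.88 ± 0.15), ZEB1, a repressor of epithelial genes (2.09 ± 0.40), BANP, a nuclear DNA-binding protein (0.93 ± 0.19), and SEMA4D, a semaphorin (0.99 ± 0.20), on the log2 scale with SE. None passed the threshold (edgeR adjusted p = 0.499 for each). ZEB1 was scarce in this line, at 6.56, 5.46, 3.18 and 2.55 CPM after CB-6644 and 1.48, 0.798, 0.633 and 1.00 CPM after DMSO. The groups did not overlap. C10orf95-AS1 (0.92), TMEM217B (4.32, at most 0.184 CPM in DMSO) and the snoRNAs SNORD68, SNORD35A, SNORD12C and SNORD46 were also among the 12 genes of smallest p on this side.

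On the other side, AMPD2, an AMP deaminase, was at 290, 281, 329 and 279 CPM after CB-6644 and 469, 488, 468 and 413 CPM after DMSO, a log2 fold change of −0.64 ± 0.13. BDNF, a neurotrophin, was at 106, 101.2, 129.6 and 86.6 CPM against 179, 216, 208 and 148 (−0.83 ± 0.18). The groups of both genes were apart in both experiments. LZTFL1, a regulator of ciliary trafficking (−1.14 ± 0.25), UNC50 (−0.77 ± 0.16), SGCE, a sarcoglycan (−1.13 ± 0.25), ALOX12, a lipoxygenase (−1.87 ± 0.41), and TSTD2 (−0.97 ± 0.23) also had every CB-6644 library below every DMSO library. ZNF334 (−1.06), HNRNPDL, an RNA-binding protein gene (−0.68), NBN, of the MRN DNA repair complex (−0.61), the chemokine gene CXCL8 (−0.66) and TRIM16L (−1.0) were lower within each experiment. All of these had an edgeR adjusted p of 0.499.

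The fold changes of the 2 experiments had little in common. Experiment 1 had 2126 genes at an unadjusted p under 0.05 of 14496 tested, 909 higher (6.27%) and 1217 lower (8.4%), whereas experiment 2 had 784, with 394 higher (2.72%) and 390 lower (2.69%). Of these, edgeR called 1 gene in experiment 1 (0.0069%) and 0 in experiment 2 (0%), and DESeq2 called 748 and 34. Over the 8132 genes at a mean of 10 CPM or more, the SD of the log2 fold changes was 0.49 in experiment 1 and 0.31 in experiment 2, whereas over all 14496 genes, scarce ones included, the order was reversed (0.91 and 1.18). Across the 8132 genes, which are not independent replicates, the fold changes of the experiments were nearly unrelated (Pearson r = 0.0727). They share no library. A test of the difference between the experiments called 0 of 14496 genes in edgeR (0%), with 1404 at an unadjusted p under 0.05, and 132 in DESeq2. The number of calls depended on single libraries: without CB-6644 1.1, experiment 1 had 24, and without CB-6644 2.1, experiment 2 had 25.

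The gene called in experiment 1 was PPA2, a mitochondrial inorganic pyrophosphatase. Its T>C level was 341 and 306 CPM after CB-6644 and 56.7 and 76.1 CPM after DMSO in experiment 1. In experiment 2 it was 64.9 and 87.8 against 74.3 and 78.2 CPM, with overlapping groups. PPA2 rose by 2.28 ± 0.23 on the log2 scale in experiment 1 (edgeR adjusted p = 0.0407) and differed by 0.00 in experiment 2 (interaction, edgeR adjusted p = 0.434). Its call in experiment 1 was lost without CB-6644 1.2, DMSO 1.1, DMSO 1.2, DMSO 2.1 or DMSO 2.2 (edgeR adjusted p from 0.0697 to 0.218). In all reads PPA2 differed by −0.07 over both experiments together, a value that does not give its all-read change in experiment 1.

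Several other genes, chosen after seeing the data for their small p-values in experiment 1, had smaller differences in experiment 2. FAU and PTHLH were also chosen for a small p of the difference between experiments. Such a choice favours large values in experiment 1, so the smaller values in experiment 2 do not by themselves show a split. POLR2A, the largest RNA polymerase II subunit, was at 98.0 and 147 CPM against 36.9 and 35.2 in experiment 1 and at 68.4 and 63.6 against 65.3 and 52.5 in experiment 2. FAU, which encodes a ubiquitin-like protein fused to ribosomal protein S30, had log2 fold changes of 1.89 in experiment 1 and 0.07 in experiment 2. PTHLH, the gene of parathyroid hormone-related protein, was at 147 and 172 CPM against 391 and 463 in experiment 1 and at 398 and 423 against 406 and 405 in experiment 2. It fell in experiment 1 in all reads, by 1.61 ± 0.16 on the log2 scale (edgeR adjusted p = 0.0308), and in T>C reads had −1.43 ± 0.17 (edgeR adjusted p = 0.0641). CAV2, a caveolin (−1.38), FST, follistatin (−1.36), and the snoRNA hosts SNHG3 (−1.60) and TAF1D (−1.23) had log2 fold changes below −1 in experiment 1 (edgeR adjusted p = 0.0641) and were at −0.19, 0.01, −0.15 and −0.18 in experiment 2, in the same order. Their differences between experiments had an edgeR adjusted p of 0.434, so a difference between the experiments was not shown.

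**Figure D3:**
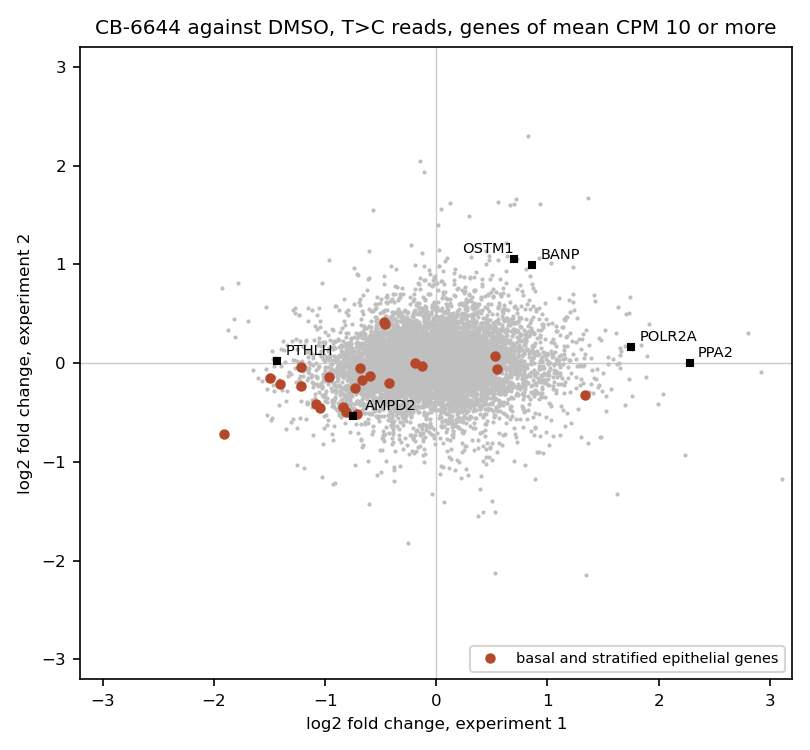
The x and y axes give log2 fold changes of T>C reads, CB-6644 against DMSO, in experiments 1 and 2, with 1 grey point for each of the 8132 genes at a mean of 10 CPM or more (1 lies outside the axes) and red points for 23 basal and stratified epithelial genes. The cloud of these genes is wider along the x axis (SD 0.49) than along the y axis (0.31), an order that is reversed over all 14496 genes tested (0.91 and 1.18), and most red points lie left of 0 and near 0 on the y axis.

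The base composition of the transcripts moved with the fold changes, in opposite directions in the 2 experiments. GC content was taken over the last 400 bases of the canonical transcript of 8072 genes. Its Spearman rho with the log2 fold change was 0.26 in experiment 1 and −0.14 in experiment 2 for T>C reads, and 0.35 and −0.26 for all reads. In the 1981 genes with a GC of 49.25% or more the median log2 fold change was 0.14 in experiment 1 and −0.07 in experiment 2, and in the 2081 genes with 33.0% or less it was −0.17 and 0.02. Between CB-6644 and DMSO libraries of the same number, which were not treated as pairs, rho was 0.35 and 0.15 in experiment 1. In experiment 2 it was −0.19 for the libraries numbered 2.1 and 0.01 for those numbered 2.2. Between libraries of the same treatment (first minus second), rho was −0.23 for DMSO and −0.12 for CB-6644 in experiment 1, and 0.04 and −0.15 in experiment 2. The part of GC content in the results of single genes was not tested.

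KLF5 itself was at 454, 422, 450 and 628 CPM of T>C reads after CB-6644 and 560, 494, 545 and 581 CPM after DMSO. The groups overlapped (log2 fold change −0.16 ± 0.14, edgeR adjusted p = 0.735). Reads were counted in 3′UTR exons, and the KLF5 fusion was introduced as a cDNA. Whether the KLF5 row holds RNA of the fusion, of the knocked-out endogenous gene or of both was not tested. RUVBL1 was at 16.4 to 21.7 CPM against 14.1 to 26.4 (−0.09 ± 0.17), and RUVBL2 at 28.2 to 61.2 against 35.5 to 56.5 (−0.23 ± 0.24). CB-6644 acts on the protein, so these RNA levels do not check the treatment.

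Basal-like genes were lower after CB-6644 mainly in experiment 1, and none of the 8 panel genes passed the threshold in edgeR with its filter on low counts or in DESeq2. With no filter, edgeR called SERPINB5, KRT4, KRT5, KRT14 and KRT17 (adjusted p from 0.00137 to 0.0412). SERPINB5, which encodes maspin, was at 43.8 and 45.9 CPM against 71.3 and 165 in experiment 1 and at 88.0 and 85.6 against 102 and 98.9 in experiment 2. Its CB-6644 libraries were the lower ones in each experiment. The log2 fold change was −1.4 in experiment 1 and −0.21 in experiment 2 (−0.80 ± 0.29 over both, edgeR adjusted p = 0.522). Without DMSO 1.2 the value over both was −0.40 for SERPINB5, and it moved from −0.82 to −0.31 for KRT17 and from −0.62 to −0.24 for KRT5. KRT17, a basal keratin, was at 216 and 165 CPM against 277 and 791 in experiment 1 and at 1062 and 1569 against 1514 and 1410 in experiment 2. The 2 DMSO libraries of experiment 1 were themselves far apart. S100A2, a calcium-binding protein of basal epithelium, was at 712 and 711 CPM against 1323 and 1446 in experiment 1 and at 1362 and 2005 against 1903 and 1808 in experiment 2. KRT5 (−1.22 and −0.04 in experiments 1 and 2), KRT6A (−0.66 and −0.17), KRT14 (−1.22 and −0.24), the mucosal keratin gene KRT4 (−1.91 and −0.72) and TP63, the master regulator of squamous identity (−0.87 and 0.08), had the same order of the 2 experiments. For TP63, KRT5 and S100A2 the interaction had an edgeR adjusted p of 0.466, 0.508 and 0.465, so a difference between the experiments was not shown.

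**Figure D4:**
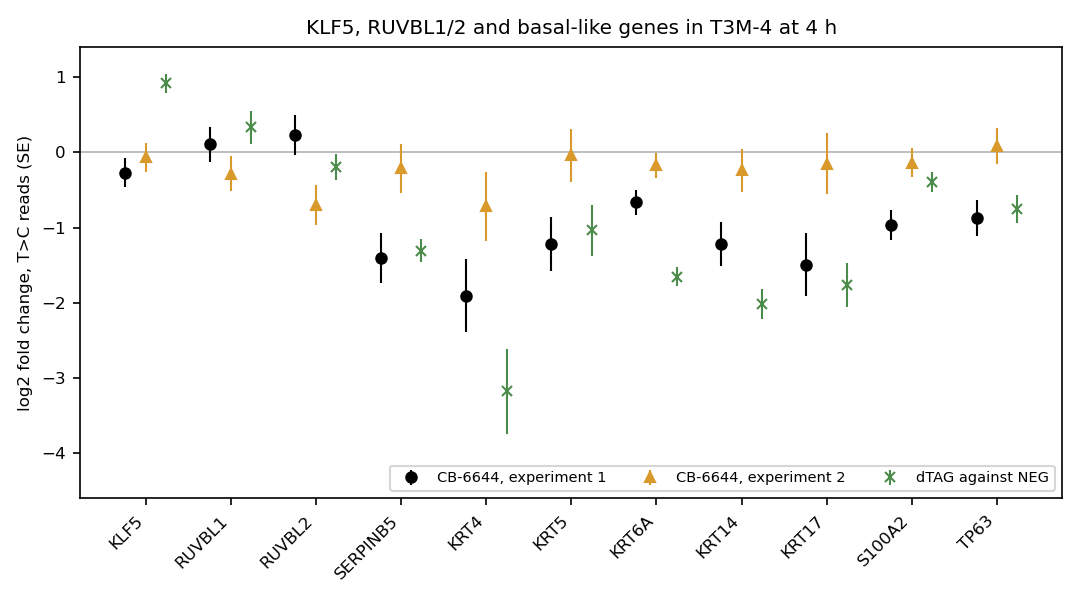
The y axis gives the log2 fold change of T>C reads with its SE for the 11 genes on the x axis, for CB-6644 against DMSO in experiment 1 (circles) and experiment 2 (triangles) and for dTAG against NEG (crosses). For the 8 basal-like genes the circles lie between −1.91 and −0.66 and the triangles between −0.72 and 0.08.

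A list of 35 basal and stratified epithelial genes was drawn up with earlier results of these data known, so its counts are a description. Of these genes, 32 were tested and 29 had a log2 fold change below 0 in the blocked comparison. Their median was −0.45, against −0.01 over all genes. At an unadjusted p under 0.05, 18 were lower and 0 higher. Of all genes tested, 51.8% were below 0, and 4.96% were lower and 4.18% higher at that p. The median of the basal genes was −0.75 in experiment 1, with 21 lower and 1 higher, and −0.18 in experiment 2, with 0 in either direction. Over all genes, 8.4% were lower and 6.27% higher in experiment 1, and 2.69% and 2.72% in experiment 2. Of the cornified envelope genes, SPRR1B was at 12.2 and 11.6 CPM against 19.4 and 29.6 in experiment 1 and at 28.8 and 32.7 against 43.2 and 40.8 in experiment 2, lower in both (−0.74 ± 0.20). SPRR2D (−0.61 ± 0.17) and the serpin gene SERPINB3 (−0.90 ± 0.26) were also below 0 in both experiments, whereas TRIM29 was at 0.31 ± 0.19 (edgeR adjusted p from 0.499 to 0.630). The 23 basal genes with a GC value had a median GC of 48.0%, against 39.6% over all genes. The part of GC content in their fold changes was not tested. The Moffitt basal-like list used by the study, with 138 of 173 genes tested in the single experiments, had a median of −0.45 in experiment 1 and −0.06 in experiment 2. For the Moffitt classical list, with 116 of 232 tested, the medians were −0.12 and 0.01. In the blocked comparison the median was −0.17 for the Moffitt basal-like list and −0.05 for the Moffitt classical list.

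**Figure D5:**
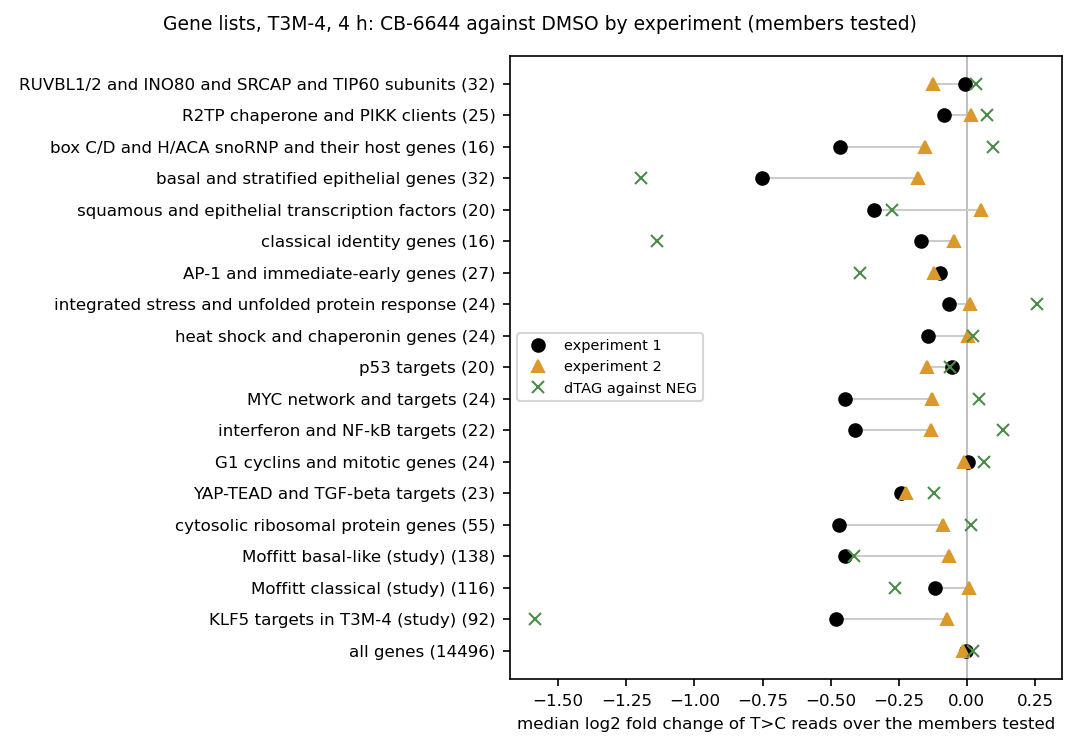
The x axis gives the median log2 fold change of T>C reads over the tested members of each list (number in parentheses), with circles for experiment 1, triangles for experiment 2 and crosses for dTAG against NEG. The basal list has the lowest circle (−0.75), and its triangle lies at −0.18.

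Several other lists, drawn up like the basal list with earlier results known, also had medians below that of all genes in the blocked comparison. There, 51.8% of all genes tested were below 0, and 4.96% were lower and 4.18% higher at an unadjusted p under 0.05. Of 55 genes of cytosolic ribosomal proteins, 54 were tested and 49 were below 0, with a median of −0.32 in the blocked comparison, −0.47 in experiment 1 and −0.09 in experiment 2. At an unadjusted p under 0.05, 17 were lower and 0 higher. RPS20 (−0.63 ± 0.17), RPS2 (−0.55 ± 0.15) and RPL34 (−0.63 ± 0.18) were among them, while RPL12 was at 0.34 ± 0.29 and RPS7 at 0.14 ± 0.17. Genes of the box C/D and H/ACA particles and their hosts had a median of −0.34 over 16 tested of 24 listed, 7 lower and 0 higher at an unadjusted p under 0.05. There the core protein gene NOP56 was at 0.21 ± 0.12 and FBL, the methyltransferase fibrillarin, at 0.14 ± 0.15, whereas the hosts ZFAS1 (−0.60 ± 0.19), SNHG3 (−0.87 ± 0.28) and SNHG8 (−0.58 ± 0.19) were below 0. Of 22 interferon and NF-kB targets tested, 8 were lower and 1, the antiviral gene MX1 (0.57 ± 0.16), higher at an unadjusted p under 0.05, with a median of −0.35 (BIRC3 −0.61 ± 0.21, TNFAIP3 −0.56 ± 0.19). Of 23 YAP-TEAD and TGF-beta targets, 20 were below 0, with medians of −0.24 and −0.22 in experiments 1 and 2, the tissue factor gene F3 among them (−0.70 ± 0.18). Of 24 MYC network genes, 21 were below 0 (median −0.23), with NPM1, nucleophosmin, at −0.66 ± 0.17 and MYC at −0.44 ± 0.17.

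Among genes of the complexes that contain RUVBL1/2 or depend on it, the 32 tested subunits of INO80, SRCAP and TIP60 had a median of −0.01 in the blocked comparison, with 16 above and 16 below 0. The median was −0.01 in experiment 1 and −0.12 in experiment 2, where 23 were below 0 (51.5% of all genes). At an unadjusted p under 0.05, 4 subunits were lower over both experiments and 0 higher, beside 4.96% and 4.18% of all genes. The 4 were ACTL6A, an actin-related subunit (−0.54 ± 0.14), ING3, of TIP60 (−0.48 ± 0.15), MCRS1 (−0.61 ± 0.24) and, named after its values were seen, UCHL5, a deubiquitinase of INO80 (−0.41 ± 0.18). The 24 tested genes of R2TP and its clients had a median of 0.00, with POLR2A at 0.96 ± 0.31, the kinase gene PRKDC at 0.44 ± 0.20 and NUFIP1, a snoRNP assembly factor, at −0.49 ± 0.21. Of the stress responses, the median was −0.04 for 24 genes of the integrated stress and unfolded protein responses, −0.04 for 24 heat shock and chaperonin genes and −0.10 for 20 p53 targets. At an unadjusted p under 0.05, the members above 0 were ATF3 (0.38 ± 0.15), the heat shock protein genes HSPB1 (0.51 ± 0.20), HSPA1A (0.99 ± 0.43) and HSPH1 (0.32 ± 0.14), and BAX (1.48 ± 0.46). Those below 0 were the mTORC1 inhibitor gene DDIT4 (−0.40 ± 0.15), the chaperonin gene CCT2 (−0.36 ± 0.13), CCNG1 (−0.60 ± 0.19) and the death receptor gene FAS (−0.59 ± 0.24). Medians were −0.13 for 27 AP-1 and immediate-early genes, −0.16 for 20 epithelial transcription factors, −0.09 for 15 classical genes and −0.06 for 24 cell cycle genes.

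The CB-6644 effect on newly made RNA differed from that of KLF5 degradation in the same line, which was measured in other libraries (4 dTAG, 4 NEG). Of 14644 genes, 187 were called for the difference (1.28%), 145 higher after CB-6644 than after dTAG relative to their controls (0.99%) and 42 lower (0.287%). Without the replicate block the count was 23, with EPB41L1 (adjusted p = 0.267), THBS1 (0.903) and CXCL1 (edgeR adjusted p = 0.135) no longer called. With 1 CB-6644 or DMSO library left out the count was 99 to 184. No dTAG or NEG library was left out, so the dependence on those libraries was not tested. C1orf116 had a log2 fold change of −0.03 ± 0.12 after CB-6644 and −1.81 ± 0.12 after dTAG (difference 1.82, edgeR adjusted p = 9.18e-06). The small GTPase gene RHOF (0.00 and −1.77), EPB41L1, of the cortical cytoskeleton (0.18 and −1.69), and the co-receptor gene NRP2 (0.03 and −1.79) had the same pattern, as did RNU6-1175P, a U6 pseudogene whose reads could come from its copies (0.04 and −3.90). In the basal panel, KRT6A was lower after dTAG than after CB-6644 (−1.65 and −0.41, edgeR adjusted p = 0.00201 for the difference), while for SERPINB5 a difference was not shown (−1.305 and −0.80, edgeR adjusted p = 0.682). ELF3, an epithelial ETS factor, was at 0.23 after CB-6644 and −2.01 after dTAG (edgeR adjusted p = 0.000679).

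Other genes were higher after dTAG and not after CB-6644. THBS1, thrombospondin, was at −0.65 ± 0.16 after CB-6644 and 0.95 ± 0.13 after dTAG (edgeR adjusted p = 0.00081 for the difference). HEY1, a Notch target (−0.53 and 1.77), the collagenase gene MMP1 (−0.79 and 1.74), the chemokine gene CXCL1 (−0.64 and 1.07) and FOXA2 (−0.39 and 1.2) had the same order, with edgeR adjusted p from 0.00201 to 0.00238. The KLF5 row, which may hold RNA of the knocked-out endogenous gene, was at −0.16 after CB-6644 and 0.92 after dTAG (edgeR adjusted p = 0.00762). Of the 92 KLF5 targets that the study chose on these dTAG libraries, 74 were below 0 after CB-6644, with a median of −0.26 (−0.48 in experiment 1, −0.07 in experiment 2) and 23 lower and 0 higher at an unadjusted p under 0.05. Their median after dTAG was −1.58, which that choice fixes, and the difference from dTAG contains the same values, so it is not read for them. Over all genes tested, 51.8% were below 0 after CB-6644, and 4.96% were lower and 4.18% higher at an unadjusted p under 0.05.

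The CB-6644 effect on T>C reads was also compared with that in AsPC-1 at 4 h. No gene of 14298 was called for a difference between lines in edgeR (0%), with 800 at an unadjusted p under 0.05, and DESeq2 called 16. OSTM1 was higher in T3M-4 (0.88) and at −0.31 in AsPC-1 (edgeR adjusted p = 0.463 for the difference), and AMPD2 was at −0.64 and 0.04 (edgeR adjusted p = 0.562). GATD1, SGK2, ADGRG1 and ATP13A3-DT had the other small p-values with a more positive value in T3M-4, and EBPL, C1orf198, DIMT1 and RPL31 with a more negative one.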

How the data were processed

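T3M-4 cells were labelled with 4-thiouridine for 2 h, and SLAM-seq 3′ end libraries were sequenced. With slamdunk at its defaults, the authors mapped reads to hg38 and counted them in 3′UTR exons of GENCODE v44, adding up the exons of a gene. The deposited tables hold whole-number counts of 29794 genes, in 1 table of T>C reads and 1 of all reads per line, with no normalization. How rows of genes without a 3′UTR were counted is not given in the sources used here. The tables held 18 empty unnamed columns and 0 unmapped columns with values.

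Genes were tested with edgeR 4.0.16 (filterByExpr, TMM, estimateDisp, glmQLFit, glmQLFTest) in R 4.3.3, on the 8 libraries with the experiment as a block, or with 1 mean per group and experiment for the single experiments and their difference. Comparisons with dTAG and AsPC-1 were interaction terms in 1 fit. A call needed p under 0.05 after Benjamini-Hochberg adjustment over all genes of the fit. Each SE was taken as the absolute log2 value over the root of its F statistic, and CPM use TMM-scaled totals. DESeq2 1.42.0, RLE, no filter, scaling by all reads, other blocks and leaving out each CB-6644 or DMSO library of T3M-4 were alternatives. The fits were tested on simulated data. Single values were compared by exact permutation in Python 3.11.15 (scipy 1.17.1), on log2(CPM + 0.01) for snoRNAs.

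Named genes were a panel of KLF5, RUVBL1, RUVBL2 and basal-like genes, the 12 of smallest p on each side with the same sign in both experiments, the 5 on each side of each difference and up to 3 per list and side. The members and lists were chosen with earlier results of these data known, and the snoRNAs and the 10 genes of smallest p in experiment 1 were added after seeing the data. A gene that this rule named, a host gene and a snoRNA sequence are not reported here. Within groups, deviations of same-numbered libraries correlated by 0.20 to 0.45, from the shared experiment (0.00 and −0.05 within experiments), so the experiment was the block.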

Additional observations from a re-analysis of the deposited data

Results flagged for a closer look

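The difference between the CB-6644 and the dTAG effect passed the threshold for the 10 genes named by its smallest p-values. It was 3.97 for RNU6-1175P, 1.82 for C1orf116, 1.80 for RHOF, 1.90 for EPB41L1 and 1.85 for NRP2 on the log2 scale, and −1.58 for THBS1, −2.28 for HEY1, −2.50 for MMP1, −1.69 for CXCL1 and −1.56 for FOXA2. In all reads, RIMS2 differed between the lines by −7.15, with T3M-4 libraries from 4.07 to 25.1 CPM in both groups, and was called in neither line by itself.

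Some libraries stood apart from the other 3 of their group. KLF5 was at 628 CPM of T>C reads in CB-6644 2.2, and LZTFL1 at 14.0 CPM in DMSO 2.1. In all reads, the highest DMSO library was at 0.0163 CPM for SNORD35A, 0.00816 for SNORD12C, 0.00571 for SNORD45C and 0.0994 for SNORD55, where the first 3 rest on 1 or 2 reads. Chance flags about 1 group in 20 where values spread normally. That rate does not hold for SNORD35A, SNORD12C and SNORD45C, each with reads in only 1 DMSO library.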

How the results depend on the processing

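Calls over both experiments in T>C reads went from 0 to 44 with DESeq2 and 247 with no filter on low counts. The same settings moved experiment 1 from 1 to 748 and 801, experiment 2 from 0 to 34 and 164, and their difference from 0 to 132 and 293. Experiment 1 had 4 calls when scaled by all reads and 0 in a fit of its own 4 libraries. All-read calls went from 2 to 29 with DESeq2 and 142 with no filter, the latter chosen after seeing the data, and both kept SNORD68 and SNORD46. The difference between lines had 16 calls with DESeq2, and that between CB-6644 and dTAG 449 with DESeq2 and 23 with no replicate block. The causes were not tested. Over both experiments, 0 genes were called with no replicate block or with the replicate block by the whole number, where 569 and 963 had an unadjusted p under 0.05. Each CB-6644 and DMSO library of T3M-4 was left out in turn, and no dTAG, NEG or AsPC-1 library was. This gave 0 to 0 calls over both experiments, 0 to 24 in experiment 1 and 0 to 25 in experiment 2. There were 0 to 7 for their difference, 1 to 3 in all reads, 0 to 1 between lines and 99 to 184 against dTAG. The labelled share differed by −1.04 to −0.295 points. SNORD68 was called under all 12 alternatives (edgeR adjusted p up to 0.000351), SNORD46 under 9, and LVRN under 2 of 16. Without CB-6644 1.2, MAX and RPL12 changed sign, with ranges of −0.028 to 0.38 and −0.038 to 0.50 over the libraries left out, never past the threshold. Of 2646 alternatives for single genes, 2508 kept their side of the threshold and were not counted as changing direction. Uncalled genes within 1 SE of 0 were never counted as changing direction, although some changed sign. MXD4 was such a gene, at −0.65 to 1.51 over the libraries left out. Scaling by all reads moved the median of all genes by less than 0.1. With 2 libraries per group and experiment, and under 20 reads per DMSO library for each of the 6 snoRNAs plotted, small differences could not be seen.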
